A study of Homo sapiens with 31 samples.

Results

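The C/EBP transcription factor family was followed through 4 groups of ovarian cancer cell line libraries. Its 6 genes, CEBPA, CEBPB, CEBPD, CEBPE, CEBPG and CEBPZ, were taken by symbol from a table of 19221 genes, and all 6 were found. mRNA of 31 libraries was sequenced, and the deposited values were FPKM, fragments scaled for gene length and for the size of the library. Levels of different genes can thus be set side by side, but members also varied with a GC index of the libraries, given below.

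The first comparison was between C13* cells with a control shRNA (C13* shCON, n = 7) and C13* cells with an shRNA against CEBPB (C13* shCEBPB, n = 8), both made with lentivirus. C13* is described as an ovarian cancer line that resists cisplatin and is proficient in homologous recombination, but its origin is disputed, and A2780 is also a debated model of serous ovarian cancer. The second was between A2780, an ovarian cancer line (n = 8), and A2780 OlaR (n = 8), a strain derived from it by rising exposure to the PARP inhibitor olaparib until its IC50 was at least 30 times that of the parent. The paper describes the replicates of each sequenced sample as biological, unless stated otherwise. No source used here says whether they came from separate cultures of 1 strain, so p-values measure the spread between these libraries. One shCON library (replicate 1) has A2780 in its cell line field and C13* in its title, and was kept as C13* shCON.

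C/EBP proteins carry a basic region that contacts DNA and a leucine zipper through which they pair with each other or with relatives such as ATF4. C/EBPα is known for halting the cell cycle during differentiation, C/EBPβ and C/EBPδ for responses to cytokines and stress, and C/EBPε for late granulocyte development. C/EBPγ lacks a strong activation domain and acts mainly as a partner of other bZIP proteins, while CEBPZ has no bZIP domain and takes its name from binding of CCAAT sequences.

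Promoter stretches are shown for the 3 genes whose levels differed most between groups, with the motifs found in them in capitals. The sequences are from RefSeq on GRCh38.p14, 5′ to 3′ on the strand of the gene, ending 1 base before a RefSeq start. Windows were given for 5 of the 6 members.
CEBPB, chr20:50190580-50190829, + strand: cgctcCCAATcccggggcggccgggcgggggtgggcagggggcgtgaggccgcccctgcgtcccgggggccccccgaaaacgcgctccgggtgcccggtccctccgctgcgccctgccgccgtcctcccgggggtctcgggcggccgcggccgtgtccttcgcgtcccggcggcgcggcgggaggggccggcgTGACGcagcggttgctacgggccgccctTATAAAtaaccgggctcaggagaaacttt
CEBPA, chr19:33302535-33302784, - strand: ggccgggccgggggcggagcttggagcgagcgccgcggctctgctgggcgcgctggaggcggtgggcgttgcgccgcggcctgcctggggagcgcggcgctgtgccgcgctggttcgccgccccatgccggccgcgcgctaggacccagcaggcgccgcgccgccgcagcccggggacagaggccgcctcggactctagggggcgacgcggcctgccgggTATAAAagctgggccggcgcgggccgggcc
CEBPG, chr19:33373459-33373708, + strand: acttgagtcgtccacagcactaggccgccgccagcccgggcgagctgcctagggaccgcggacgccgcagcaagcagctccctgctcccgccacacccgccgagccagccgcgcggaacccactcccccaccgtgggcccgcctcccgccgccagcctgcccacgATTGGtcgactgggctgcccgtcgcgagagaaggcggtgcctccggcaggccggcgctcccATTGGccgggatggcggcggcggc
A shorter stretch before a second start of CEBPG is shown for the composite C/EBP-ATF motif it holds, and it ends 24 bases before that start.
CEBPG second start, chr19:33374060-33374089, + strand: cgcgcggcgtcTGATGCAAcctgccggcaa

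The search covered TTGCNNAA (a C/EBP motif), TGACG (a cAMP response motif), TGATGCAA, CCAAT and TATAAA on both strands of windows from 250 bases before to 50 after each start. The CEBPB window held a TGACG at position -57, a TATAAA at -29 and a CCAAT at -245, counted from the start. TATAAA also stood at -30 of CEBPA. CEBPG held CCAAT on the opposite strand (ATTGG) at -85 and -24, and TGATGCAA at -42 of its second start. Of all 35116 windows, 10.5% held TTGCNNAA, 24.6% TGACG, 0.866% TGATGCAA, 34.6% CCAAT and 11.5% TATAAA. No member window held TTGCNNAA.

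The members differ in gene structure and base composition. On hg38 (GENCODE 44), CEBPA (chr19:33299934-33302534), CEBPB (chr20:50190830-50192668) and CEBPD (chr8:47736913-47738164) each have 1 exon. CEBPE (chr14:23117036-23120256) has 4 exons, CEBPG (chr19:33373685-33382686) 3 and CEBPZ (chr2:37201612-37231596) 17. GC content of the transcript was 65.9% in CEBPA, 66.2% in CEBPB and 66.0% in CEBPD, against 41.3% in CEBPG and 39.0% in CEBPZ and a median of 48.9% over all genes. CEBPB shares 231 exonic bases with CEBPB-AS1 on the other strand, and CEBPZ shares 351 with CEBPZOS. CEBPA shares 659 and 482 bases with a pair of antisense RNAs. Whether counting used the strand is not stated, so reads of these genes and their antisense partners may not be told apart.

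Several facts of the libraries touch every comparison. Over 12967 genes, the group means of C13* shCON and A2780 OlaR had a Pearson's r of 0.993, and 69 genes differed at least 2-fold. Single libraries of these groups gave 0.980 to 0.991, against 0.981 to 0.998 within a group. The r was 0.791 between shCON and shCEBPB and 0.709 between A2780 and A2780 OlaR. The squamous keratins and TP63 (KRT5, KRT14, KRT6A, TP63) summed to 1532 to 1805 FPKM in shCON and 1735 to 2107 in OlaR. They summed to at most 0.316 in shCEBPB and 0.191 in A2780. ALDH1A1 and MMP10, high in A2780 (1781 to 2027 summed), were at most at 0.382 summed in OlaR. Mesenchymal markers (VIM, ZEB1, CDH2) summed to 25.3 to 29.4 in shCON, 341 to 371 in shCEBPB, 857 to 898 in A2780 and 17.1 to 21.3 in OlaR. VIM made up most of the sum in shCEBPB and A2780, and CDH2 was lower in shCEBPB (7.56) than in shCON (17.3). Simple epithelium markers (EPCAM, KRT7, KRT8, KRT18, KRT19) summed to 2233 to 2490 in shCON and 1775 to 2148 in shCEBPB. Their sum was 85.0 to 93.4 in A2780 and 2430 to 2963 in OlaR. From shCON to shCEBPB, mean KRT7 went from 8.02 to 583, KRT8 from 459 to 882 and KRT18 from 320 to 535. Mean EPCAM went from 111 to 0.567 and KRT19 from 1470 to 0.0306. The labels of OlaR and shCEBPB thus go with cells unlike their stated parents in these markers. The cause was not tested, and a difference of cell line and a treatment cannot be told apart in either comparison. Of the 4 markers of ovarian epithelium, MUC16 was under 1 FPKM in all libraries and WT1 at most at 1.23. PAX8 averaged 6.10 in shCON, 0.536 in shCEBPB, 0.555 in A2780 and 6.0 in OlaR, while FOLR1 averaged 1.20, 887, 13.3 and 0.910 in the same order. Of the leukocyte markers, PTPRC averaged 85.9 in A2780 and was near 0 elsewhere, CD68 averaged 65.4 in shCON, 11.7 in shCEBPB, 2.22 in A2780 and 41.9 in OlaR, and LYZ was near 0 in all groups. FPKM give no read totals. Steps of low values gave relative depths from 0.865 to 1.23.

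CEBPB, the gene the shRNA targets, had the highest mean FPKM of the members in each group, and in the libraries labelled shCEBPB the mean of CEBPD (44.1) was near it. It fell in these libraries, from 85.8 ± 9.93 FPKM (SD, n = 7) in shCON to 47.1 ± 9.05 (SD, n = 8). The highest shCEBPB library (58.7) lay below the lowest shCON library (75.2). On the log2(FPKM + 1) scale the groups differed by -0.87 ± 0.11, the error being the standard error of limma (adjusted p = 1.42e-06). The library names carry code numbers from 1 to 8, and the value was -1.29 within codes 1 to 3 and -0.60 within codes 4 to 8. CEBPB was also lower than in A2780 and OlaR, by 1.09 and 1.25 on the log2 scale.

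**Figure D1:**
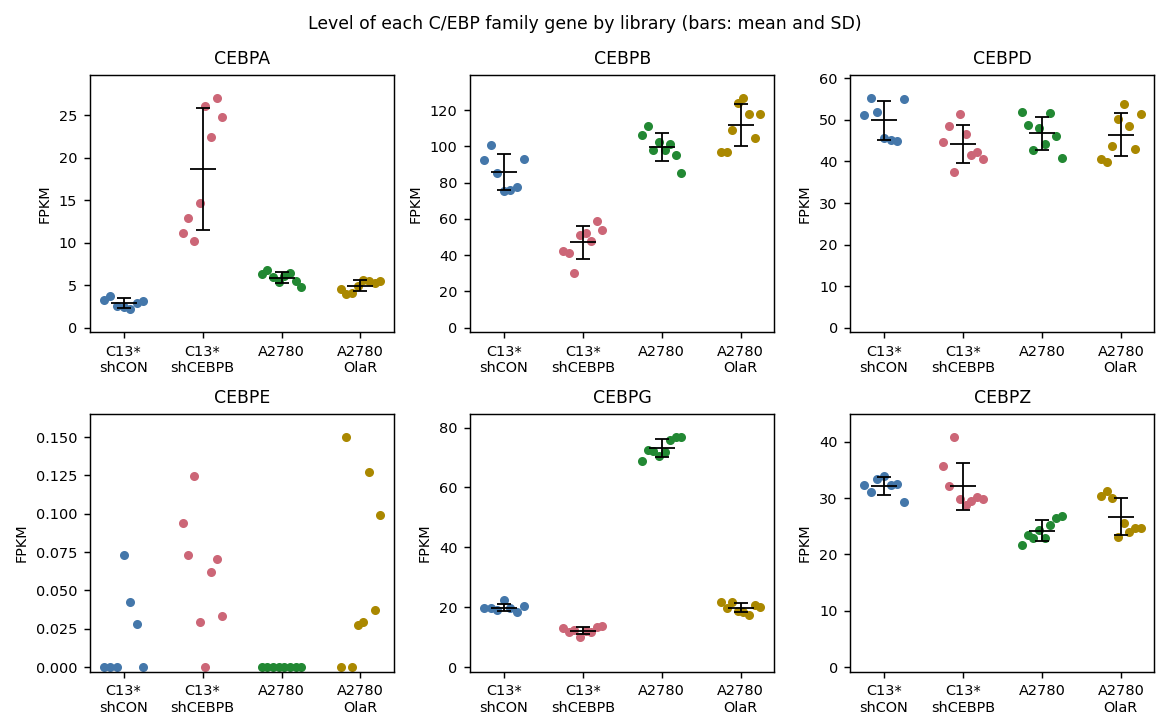
FPKM of each member (vertical axes, scaled separately) in the 31 libraries of the 4 groups; points are libraries in replicate order, and black bars are the mean and SD, left out for CEBPE. CEBPA stands highest in shCEBPB (10.2 to 27.1) and CEBPG in A2780 (68.7 to 76.9).

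CEBPA, whose protein is best known in myeloid, fat and liver cells, was the member that rose in shCEBPB. Replicates 1 to 7 of shCON stood at 3.30, 3.78, 2.51, 2.40, 2.16, 2.93 and 3.20 FPKM. The 8 shCEBPB libraries stood at 11.2, 13, 10.2, 14.7, 26.1, 22.5, 27.1 and 24.8, in replicate order. Every shCEBPB library lay above every shCON library, and replicates 1 to 4 lay below replicates 5 to 8. The mean ratio was 6.45, and the difference on the log2(FPKM + 1) scale was 2.26 ± 0.20, with the standard error (adjusted p = 5.73e-09, limma). An exact two-sided permutation test gave p = 0.000311, which is the smallest these libraries allow. Within codes 1 to 3 the log2 fold change was 1.57 and within codes 4 to 8 it was 2.69.

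CEBPG fell in shCEBPB, and the groups did not overlap. Replicates 1 to 7 of shCON stood at 19.6, 19.7, 19.1, 22.2, 19.7, 18.5 and 20.3 FPKM, and replicates 1 to 8 of shCEBPB at 13, 11.6, 12.3, 9.88, 12.1, 11.7, 13.5 and 13.7. The log2 difference came to -0.66 ± 0.06 (SE, adjusted p = 1.02e-08). CEBPD moved less, from a mean of 49.9 ± 4.61 FPKM (SD, n = 7) to 44.1 ± 4.56 (SD, n = 8). The log2 difference came to -0.17 ± 0.07 (SE, adjusted p = 0.0262), and the libraries of the groups overlapped. Within library codes 4 to 8 this value was -0.10 (adjusted p = 0.242). CEBPZ averaged 32.1 FPKM in both, with a log2 difference of -0.01 ± 0.07 (SE, adjusted p = 0.903).

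Of the 5 members tested in this comparison, 1 rose, 3 fell and 1 did not pass, when 84.7% of the 12006 genes tested were called (38.9% higher and 45.7% lower). The count of members is thus near the background. With a fold change of at least 2 as well, which 29.5% of genes passed, CEBPA alone was called. CEBPA, CEBPB and CEBPG did not overlap between the groups, as 66% of genes did not.

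In the second comparison, CEBPG was the member that differed most. A2780 replicates 1 to 8 were at 68.7, 72.6, 72.3, 70.5, 71.7, 75.8, 76.7 and 76.9 FPKM, and A2780 OlaR replicates 1 to 8 at 21.8, 19.7, 21.6, 18.8, 18.5, 17.4, 20.7 and 20.2. The lowest A2780 library (68.7) lay far above the highest OlaR library (21.8). The log2 difference came to -1.83 ± 0.04 (SE, adjusted p = 1.36e-18). An exact two-sided permutation test gave p = 0.000155, again the smallest possible.

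CEBPB was slightly higher in OlaR, and the libraries overlapped. A2780 replicates 1 to 8 were at 106.4, 111, 97.8, 102.3, 97.7, 101.5, 95.3 and 85.6 FPKM, and OlaR replicates 1 to 8 at 97.1, 97.1, 109, 124, 127, 118, 105 and 118. The log2 difference came to 0.16 ± 0.06 (SE, adjusted p = 0.0202). This call did not hold under 6 of the 13 alternatives, among them library codes 1 to 3, where the value was -0.06 (adjusted p = 0.371). Within codes 4 to 8 the call held, with a value of 0.29 (adjusted p = 0.000213). CEBPA was slightly lower, at 4.94 ± 0.66 FPKM in OlaR and 5.91 ± 0.64 in A2780 (SD, n = 8 each), with a log2 difference of -0.22 ± 0.07 (SE, adjusted p = 0.00701). Its value was -0.50 within codes 1 to 3 (adjusted p = 5.35e-05) and -0.06 within codes 4 to 8 (adjusted p = 0.410). CEBPD (log2 fold change -0.01, adjusted p = 0.847) and CEBPZ (0.13, adjusted p = 0.0640) did not pass. In the first 3 OlaR libraries CEBPZ was at 30.3, 31.3 and 30.0 FPKM, above the highest A2780 library (26.8), and in the other 5 it was at 23.1 to 25.6.

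Of these 5 members, 1 rose, 2 fell and 2 did not pass, when 89.8% of 12458 genes were called (40.1% higher and 49.7% lower). With the fold rule, which 35.7% passed, CEBPG alone was called, and CEBPG alone did not overlap, against 74.1% of genes. The median over all tested genes was -0.12 (log2), and it was -0.03 after quantile normalization and -0.18 after scaling to a common sum. Relative to this median CEBPA was at -0.10, CEBPB at 0.28, CEBPD at 0.11, CEBPG at -1.71 and CEBPZ at 0.25.

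**Figure D2:**
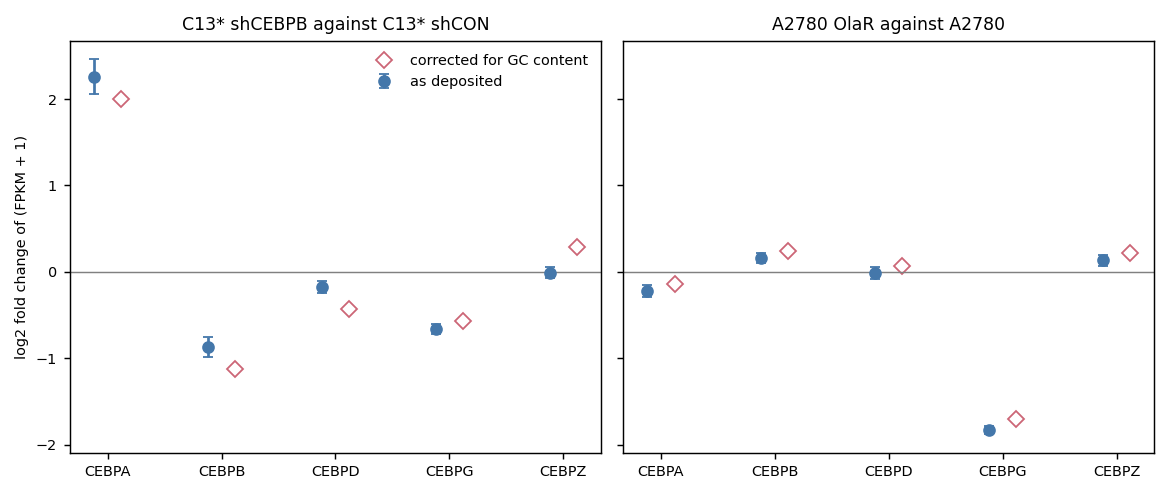
log2 fold change of FPKM + 1 for the 5 members tested in both comparisons; filled points with standard errors are from the deposited values, and open diamonds are after correction of each library for GC content. CEBPA (2.26) and CEBPG (-1.83) show the largest changes, and CEBPZ moves from -0.01 to 0.29 with the correction in shCEBPB.

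Within groups, CEBPA, CEBPB and CEBPD, with GC-rich transcripts, each varied with the GC content of the genes that were high in a library, and CEBPZ varied opposite to it. For each library a GC index was taken as the median deviation from the group mean of the tenth of genes with the highest GC content, minus that of the tenth with the lowest, 1243 genes each and no members. This index and the correction below were chosen after the values had been seen. Over 31 libraries the deviations of CEBPB followed the index with a Pearson's r of 0.86 and a Spearman's rho of 0.86. CEBPA gave 0.78 and 0.75, and CEBPZ -0.94 and -0.90 (permutation test within groups, adjusted p = 1.67e-05 for each Pearson's r of these 3 members, with 5 relations tested). CEBPD gave 0.60 and 0.60 (adjusted p = 0.00162 and 0.00147), and CEBPG -0.46 and -0.49 (adjusted p = 0.0329 and 0.0157). Without the 2 libraries farthest from the median index, r was 0.84 for CEBPB, 0.68 for CEBPA, 0.59 for CEBPD, -0.47 for CEBPG and -0.92 for CEBPZ. The sign of r was the same in each of the 4 groups for all 5 members. The index was -0.62 to -0.21 in shCEBPB library codes 1 to 3 and 0.16 to 0.34 in codes 4 to 8. It was -0.37 to -0.34 and 0.00 to 0.36 in the same ranges of OlaR, while in A2780 codes 1 to 3 were higher (0.11 to 0.28) than codes 4 to 8 (-0.34 to 0.03). In shCON the 2 ranges overlapped, at -0.05 to 0.13 in codes 1 to 3 and -0.25 to 0.18 in codes 4 to 8.

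When each library was corrected for GC content, the log2 fold changes in shCEBPB were 2.0 for CEBPA, -1.13 for CEBPB, -0.43 for CEBPD and -0.57 for CEBPG, all still called. CEBPZ became 0.29 (adjusted p = 2.50e-07). In OlaR, CEBPB became 0.24 (adjusted p = 6.10e-06), CEBPZ 0.22 (adjusted p = 7.68e-07), CEBPA -0.15 and CEBPG -1.71. With this correction 10163 of 11518 genes were called in shCEBPB and 11076 of 11958 in OlaR, so most genes tested passed. The correction also removes any difference between groups that follows GC content.

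**Figure D3:**
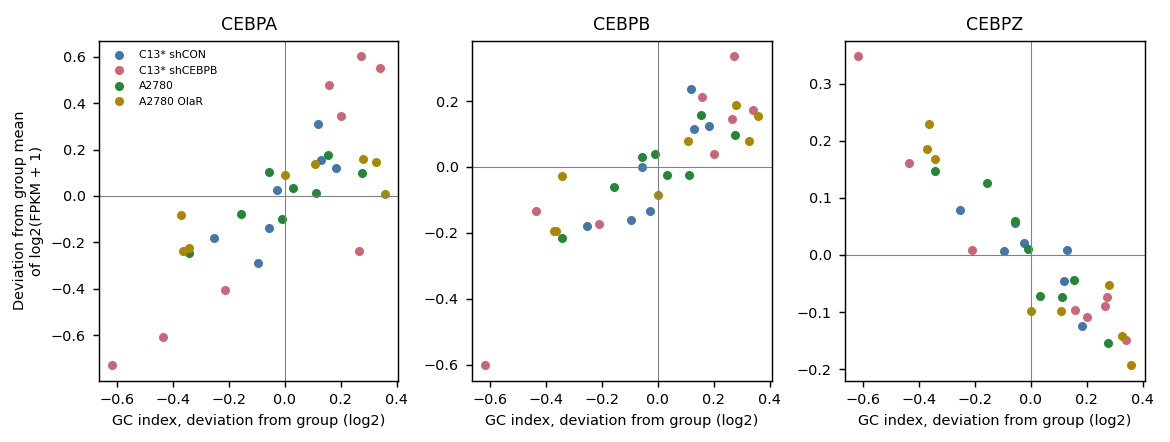
Deviation of each library from its group mean of log2(FPKM + 1) for CEBPA, CEBPB and CEBPZ (vertical axes) against the GC index of the library (horizontal axes, log2), 31 libraries coloured by group. CEBPA and CEBPB rise with the index and CEBPZ falls.

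The levels of each member were also compared across the 4 groups (1 limma fit of 31 libraries). CEBPA stood at 2.90 in shCON, 4.94 in OlaR, 5.91 in A2780 and 18.7 in shCEBPB, and the difference of the neighbours OlaR and A2780 did not pass in this fit (adjusted p = 0.163). CEBPG stood at 12.2 in shCEBPB, 19.8 in OlaR, 19.9 in shCON and 73.1 in A2780, and the difference of shCON and OlaR lay within the spread (log2 difference -0.00, standard error 0.05). CEBPD lay between 44.1 and 49.9 FPKM in the group means and was called in 1 of the 6 pairs of groups, when 37.7% of genes were called from shCON to OlaR and 84.3%, 87.6%, 88%, 84.8% and 88% in the other pairs. CEBPZ was lowest in A2780 (24.2), next in OlaR (26.7), and at 32.1 in both C13* groups, and its difference did not pass between A2780 and OlaR (adjusted p = 0.0622) or between the C13* groups (adjusted p = 0.908).

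CEBPA and CEBPB differed between the pair of groups that resembled each other most. From shCON to OlaR, CEBPB was higher by 0.38 (adjusted p = 0.00204) and CEBPA by 0.61 (adjusted p = 0.00200), and CEBPZ fell by 0.26 on the log2 scale (adjusted p = 0.00264). In this pair 37.7% of the genes were called, and 0.532% also passed the fold rule. The libraries of the groups overlapped for CEBPB and CEBPZ. No GC correction was run for this pair. With deviations taken from the mean of all libraries, the GC index averaged -0.21 in shCON (-0.47 to 0.01) and -0.06 in OlaR (-0.44 to 0.30). Whether this difference bears on the members was not tested.

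CEBPE, the granulocyte member, was near 0 throughout and did not pass the filter of 1 FPKM, so it was not in the limma test. It was above 0 in 16 of 31 libraries, with a highest value of 0.150, and listed at 0 in all 8 A2780 libraries. Its values stood at 1 to 4.5 of the steps that low values take in these libraries. Without the filter limma called it in both comparisons, with log2 differences of 0.06 in shCEBPB (adjusted p = 0.0453) and 0.08 in OlaR (adjusted p = 0.00998). In that setting 12746 of 17334 genes were called in shCEBPB and 13711 of 17638 in OlaR, so such a call was common.

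The makeup of the family differed between groups. CEBPB made up 44.9 ± 2.06% of the summed FPKM of the 6 genes in shCON (SD, n = 7), 30.3 ± 3.62% in shCEBPB, 39.9 ± 1.94% in A2780 and 53.2 ± 2.24% in OlaR (SD, n = 8 each). CEBPA rose from 1.51% in shCON to 11.9% in shCEBPB, and the ratio of CEBPB to CEBPA was 30.1 in shCON and 2.73 in shCEBPB. CEBPG held 29.3% in A2780 and between 7.95% and 10.5% in the other groups. The ratio of CEBPB to CEBPG was 1.37 ± 0.14 in A2780 and 5.69 ± 0.94 in OlaR (SD, n = 8 each). The summed FPKM was 190.6 in shCON, 154 in shCEBPB, 250 in A2780 and 210 in OlaR. Shares and ratios were not corrected for GC content, with which members varied in opposite directions. Within shCEBPB the share of CEBPZ ran from 17.3% to 31.1% and the ratio of CEBPB to CEBPG from 2.45 to 5.20. Replicate 3, with the lowest GC index of that group (-0.62), had the highest such share and the lowest such ratio.

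**Figure D4:**
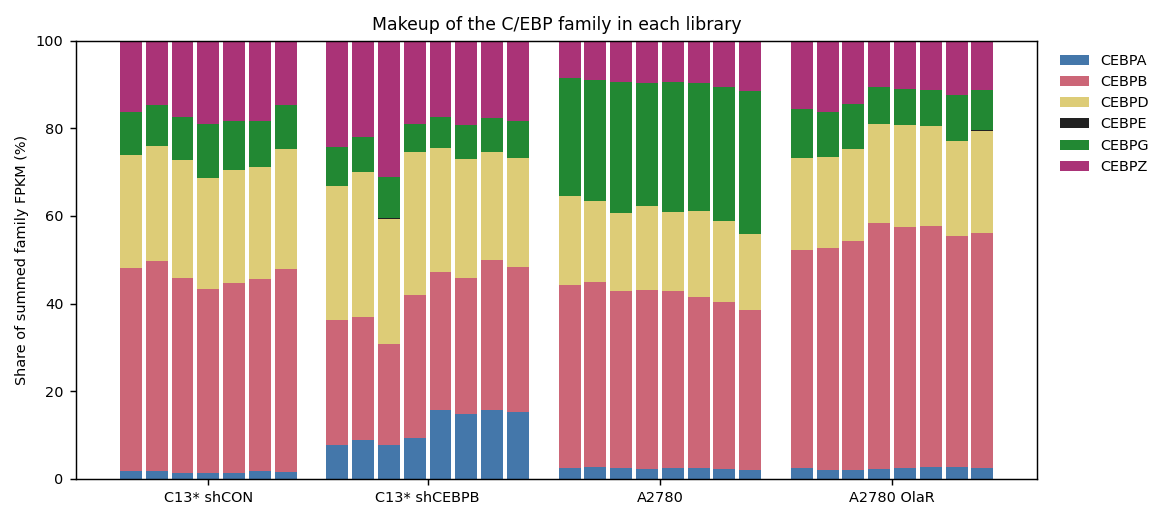
Share of the summed FPKM of the 6 members (vertical axis, %) in each library, with 1 bar a library in replicate order and groups side by side. CEBPG widens in A2780 (29.3% on average) and CEBPA in shCEBPB (11.9%).

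CEBPA and CEBPG are neighbours on chromosome 19, with starts 71.2 kb apart and opposite orientation, and moved in opposite directions in shCEBPB. PEPD, the next tested gene beyond CEBPG, rose by 0.87, and LRP3, beyond CEBPA, rose by 1.58. In OlaR, CEBPG stood out from its tested neighbours, with PEPD at -0.18, LRP3 at -0.74 and CEBPA at -0.22. UBE2V1, the nearest tested gene on one side of CEBPB, fell by 0.56 in shCEBPB and rose by 0.56 in OlaR. The gene beyond it, SNAI1, a regulator of epithelial to mesenchymal change, rose by 2.45 in shCEBPB and had a value of 0.08 in OlaR (adjusted p = 0.294). PTPN1, the nearest tested gene on the other side, fell by 1.30 in shCEBPB and rose by 1.85 in OlaR. CEBPZOS, which overlaps CEBPZ, fell by 0.38 in shCEBPB.

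**Figure D5:**
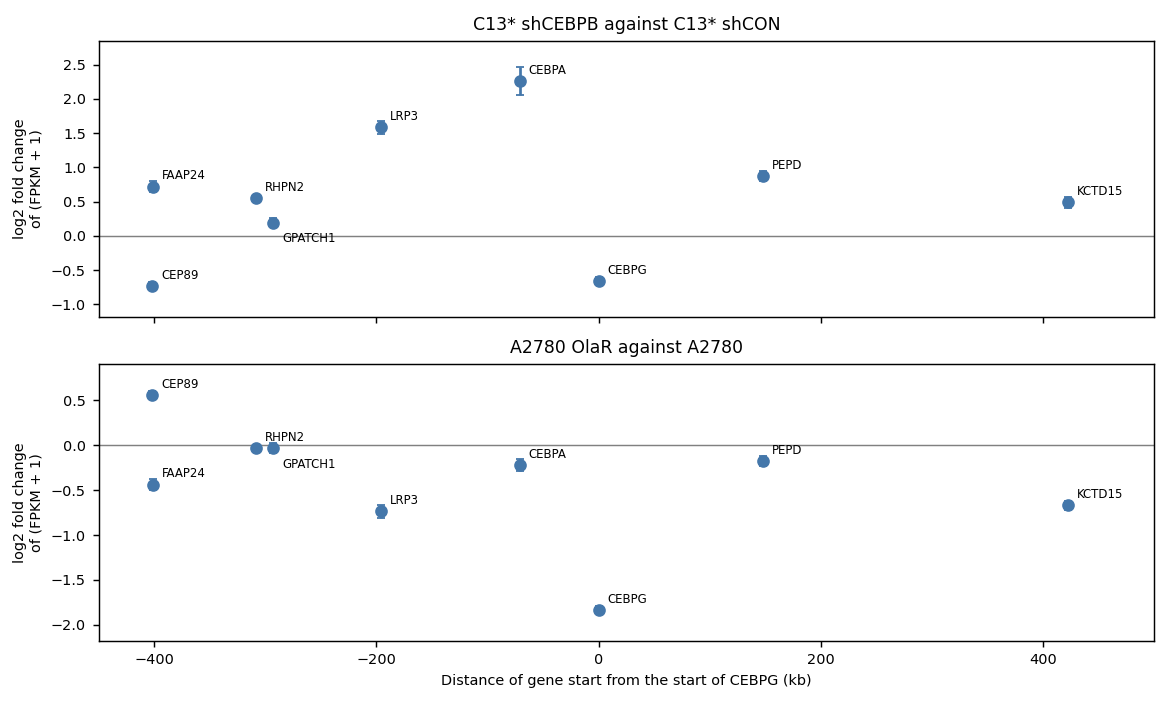
log2 fold change of FPKM + 1 with standard error (vertical axes) of tested protein-coding genes by distance of their start from that of CEBPG (kb), one panel a comparison. CEBPA and CEBPG lie on opposite sides of 0 in shCEBPB, and CEBPG is lowest in OlaR.

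The bZIP partners not among these 6 genes did not move in 1 direction. Of 7 bZIP partners tested in shCEBPB, 2 rose and 4 fell, when 38.9% of all genes tested rose and 45.7% fell, with a median log2 fold change of -0.69 against -0.07 over all genes. FOS, an AP-1 subunit, rose by 3.35, from a mean of 12 to 132 FPKM. ATF3, a stress-induced factor, rose by 1.14. JUN fell by 1.55, ATF2 fell by 1.33, DDIT3 (CHOP) fell by 1.21 and ATF4, the stress factor that pairs with C/EBPγ, fell by 0.69. In OlaR, 2 of 7 rose and 5 fell, against 40.1% and 49.7% of all genes. ATF3 fell by 2.69, DDIT3 fell by 2.17 and ATF4 fell by 0.61, while FOS rose by 1.63. Among the PAR bZIP relatives, TEF fell by 2.86 and DBP fell by 2.22 in shCEBPB, while NFIL3, a repressor, rose by 1.96. In OlaR TEF rose by 1.92, NFIL3 fell by 1.16, and HLF stood at 1.86 FPKM in A2780 and 0.251 in OlaR.

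Of 15 regulators of C/EBP proteins tested in shCEBPB, 7 rose and 6 fell, a share called near the 84.7% of all genes. FBXW7, a ubiquitin ligase component, fell by 1.62, and TRIB3 and TRIB1, pseudokinases, fell by 1.05 and by 0.99. In OlaR 6 rose and 7 fell, against 89.8% of all genes called, and CREBBP, a coactivator, fell by 2.35 while TRIB1 rose by 1.92 and CDK2 by 1.24. Among inducers of CEBPB and CEBPD transcription, IL6 stood at 0.225 FPKM in shCON and 15.9 in shCEBPB, and LIFR, a receptor of the IL-6 family, rose by 1.83. CREB1 fell by 1.18 and STAT3, through which IL-6 signals, fell by 0.80. In OlaR, STAT3 rose by 1.47 and SOCS3, an inhibitor of this pathway, by 1.12, and the glucocorticoid receptor NR3C1 stood at 0.288 FPKM in A2780 and 16.3 in OlaR.

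Of 15 textbook C/EBP target genes, 6 passed the filter in the first comparison and 5 in the second. The mean was under 1 FPKM in 1 of the groups for 3 of these 6 and 4 of these 5, which thus passed only through the group where they were high, so no count by direction is given. LCN2 averaged 19.1 FPKM in shCON, 1.47 in shCEBPB, 0.0297 in A2780 and 25.2 in OlaR, and CXCL8 averaged 6.98, 0.306, 0.318 and 9.30. PPARG, a regulator of fat cells, averaged 21.0, 21.3, 3.16 and 21.1. PCK1, ADIPOQ and MPO were near 0 in all groups. Of 8 genes of the NOC and NF-Y groups with METTL3 and METTL14, 4 rose and 2 fell in shCEBPB. Of all genes tested there, 38.9% rose and 45.7% fell, so these counts are near the background. NOC4L rose by 1.13, NOC2L rose by 0.87 and METTL3 fell by 0.76. In OlaR 3 rose and 4 fell, against 40.1% and 49.7% of all genes, again near the background. NFYC fell by 1.39, NFYB fell by 1.22 and METTL3 rose by 0.85.

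The genes whose log2(FPKM + 1) followed each member most closely over the 31 libraries were ERRFI1 for CEBPG (r = 0.996), PIGQ for CEBPA (0.978), CTSD for CEBPB (0.976), KPNA3 for CEBPZ (0.944) and PHLDA3 for CEBPD (0.750). These correlations are descriptions, since the libraries share 4 groups. With group means removed, the closest were PJA2 for CEBPZ (0.958), SPATA20 for CEBPA (0.950), IRF2BPL for CEBPB (0.941), FGFR4 for CEBPD (0.853) and CYBRD1 for CEBPG (0.839). CEBPA and CEBPB had an r of -0.63 over the values and 0.81 over these deviations. The deviations of CEBPA, CEBPB and CEBPZ also followed the GC index of the libraries (r of 0.78, 0.86 and -0.94). Correlations of deviations were not corrected for GC content, and whether the index accounts for them was not tested.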

How the data were processed

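The authors sequenced mRNA with paired-end reads, mapped it to hg38 with TopHat and counted reads per gene with HTSeq. The deposited values used here are FPKM, and the tool and annotation behind them are not given in the sources used here. Of 19225 entries, 4 that shared a symbol were dropped. The members, gene lists and tests were chosen with earlier results of these data known. limma 3.58.1 in R 4.3.3 (lmFit, eBayes with trend) was run on log2(FPKM + 1) with only the groups compared, for genes that reached 1 FPKM in a number of libraries no lower than the size of the smaller group. P-values were Benjamini-Hochberg adjusted over all genes tested, with calls under 0.05. A fold change on this scale understates that of low genes. Exact permutation tests used the difference of means, two-sided as the doubled smaller tail, settled after values had been seen. Counting absolute differences instead put 0 members on another side of 0.05. In simulated data, values were drawn independently for each gene, and 200 genes were changed by 1 on the log2 scale. Of these, 199 of 200 were found among the 12006 genes of the shCEBPB comparison (6.57% of calls false). In the OlaR comparison 200 of 200 were found among 12458 genes (4.76% false). This setting does not cover smaller changes, or shifts that many genes of a library share, such as those that follow GC content. It also changed far fewer genes than were called in the data (84.7% in shCEBPB and 89.8% in OlaR). The shares found and false in it need not hold for these data. For GC content, genes were sorted into 50 bins by their canonical transcript (18278 genes matched, 95.1%) and each library's median deviation per bin was removed, an alternative added after the values were seen. Absolute depth is unknown, so no counting error is given. Named genes were the members, from each list the 3 called genes with the largest change and no overlap, DDIT3, ATF4, NFIL3, TRIB1 and STAT3, genes beside the members, the most alike genes, and cell type markers. The alternatives were other pseudocounts, filters, scalings, 1 fit of 4 groups, replicate blocks, library code ranges, an exact rank test and leaving out shCON replicate 1.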

Additional observations from a re-analysis of the deposited data

How the results depend on the processing

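CEBPA, CEBPB and CEBPG kept direction and call in shCEBPB under all 14 alternatives (CEBPB from -1.29 in codes 1 to 3 to -0.60 in codes 4 to 8), and CEBPG in OlaR under all 13. The other filters, the fit of 4 groups and the rank test leave the fold change as it is, so only the call could change there. The rise of CEBPB in OlaR (0.16) was 0.091 after scaling to a common sum (adjusted p = 0.128), was not called in 1 fit of 4 groups (0.16, adjusted p = 0.102) or by the exact rank test (0.16, adjusted p = 0.0923), and was -0.055 in library codes 1 to 3 (adjusted p = 0.371). In that fit of 4 groups 1 of 5 members was called in OlaR, against 3 in the main fit, when 11071 of 12458 genes were called. In codes 1 to 3 and after GC correction 4 of 5 members were called, when 11348 of 12600 and 11076 of 11958 genes were. Without the filter 4 of 6 members were called, CEBPE among them, when 13711 of 17638 genes were. CEBPD in OlaR was 0.10 in codes 4 to 8 and 0.062 after GC correction, and CEBPZ in OlaR was -0.039 in codes 4 to 8. Calls were gained in OlaR for CEBPD in codes 1 to 3 (-0.20, adjusted p = 0.0176) and for CEBPZ in codes 1 to 3 (0.42, adjusted p = 4.34e-06), after quantile normalization (0.17, adjusted p = 0.0184) and after GC correction (0.22). CEBPZ in shCEBPB was 0.00 after scaling to a common sum (0.00108), 0.16 in codes 1 to 3 and 0.29 after GC correction. The cause was not tested. Deviations of libraries with the same replicate number had a mean r of -0.15 (-0.51 to 0.46) between shCEBPB and shCON. Between OlaR and A2780 the mean r was -0.23 (-0.59 to 0.12). These values cannot tell whether same-numbered libraries shared a batch, as the GC index differed between ranges of library codes in shCEBPB, OlaR and A2780. A shared batch was not tested. With the replicate block or the block by library code, CEBPB in OlaR was 0.16 (adjusted p = 0.0508 for each), and CEBPZ in shCEBPB was 0.00 (0.00475) and 0.01 (0.00635). The call of CEBPD in shCEBPB was lost with both blocks and in codes 4 to 8, and that of CEBPA in OlaR after quantile normalization (-0.06), in the fit of 4 groups and in codes 4 to 8 (-0.06). Only the listed alternatives were run, and 1 library was left out singly only for shCON replicate 1.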
